A study of Mus musculus with 15 samples.

Results

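NRL-bound regions of the mouse retina were compared between postnatal day 28 (P28) and postnatal day 4 (P4), over all 8996 peaks of the deposited quantitation table. The comparison uses 4 of the 8 library columns of that table, replicates 3 and 4 at P28 and replicates 3 and 4 at P4, chosen by their column names. The fit behind each p-value took its spread from all 8 columns, those of P2 and P10 included. The labels list 15 libraries in the series, 4 at P28, 4 at P4, 4 at P10 and 3 at P2, and the other libraries labelled P28 or P4 were not analysed here. By its title, the study set out to follow where NRL sits as rods mature and to ask about c-Jun in the early steps. Every library, at P28 as at P4, came from retina of C57BL/6J mice, for which the labels name no altered allele and no treatment. In each, 250000 cells of the dissociated whole retina were probed with an anti-NRL antibody by CUT&RUN, in which the antibody brings a nuclease to its target so that DNA beside the bound protein is cut out and sequenced. Whether the replicates of an age are different animals is not in the labels. The p-values therefore measure only how the 8 fitted libraries spread, which may be technical. Since whole retina was used, fewer cells with NRL at a site and less NRL at that site per cell cannot be told apart.

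NRL is a basic leucine zipper (bZIP) transcription factor of the Maf family that directs photoreceptor precursors to become rods instead of cones. Together with the homeobox factor CRX and the nuclear receptor NR2E3 it switches on genes of the rod outer segment, the stack of membrane discs that captures light. At P4 many rods are still being born or have just left the cell cycle and carry no outer segment, and at P28 the retina is mature.

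Values are given as RPKM, reads scaled to the length of the peak and to the size of the library, rebuilt from whole reads with the width of each peak. The P28 libraries held 98186 and 92360 reads inside the peaks and the P4 libraries held 85740 and 150878. These reads made up 1.52 and 1.51% of the library scale at P28, against 1.09 and 2.15% at P4. P4 replicate 4 thus stands above P4 replicate 3 at most peaks, with a median peak of 4.48 RPKM against 2.52 RPKM, whereas the P28 libraries had medians of 3.81 and 3.66 RPKM. Across peaks, log2 values correlated at 0.707 between the P28 libraries and 0.736 between the P4 libraries, and at 0.282 to 0.349 between a P28 and a P4 library; peaks are not replicates. Of 6 markers that define rods, all had a peak assigned to them by the authors' annotation, as had 1 of 5 cone markers (Gnat2), 1 of 4 bipolar cell markers (Trpm1) and 1 of 3 markers of the pigment epithelium (Mitf). The few defining markers chosen for this check for Müller glia, progenitors, amacrine, horizontal and ganglion cells, and microglia and vessels had none; the longer gene lists described further on hold other genes of some of these cells, and some of those genes have a peak.

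Promoter stretches of 4 genes whose peaks differed between the ages are printed as examples of sequence at or beside the signal. Wbp1l was picked for a motif match, so the 4 do not measure how often either direction holds a motif. Each is the 250 bases before an annotated start in RefSeq (mouse build GRCm38.p6), written 5′ to 3′ on the strand of the gene. Capitals mark matches to any of 4 short motifs, searched on both strands. The motifs were TGCTGA, a half-site of the element that Maf proteins bind; TGANTCA, the core bound by AP-1 factors such as c-Jun; TGACGTCA, the cyclic AMP response element; and TAATCC, the core bound by CRX and OTX2. TGCTGA and TGANTCA can share their TGA. Cdkn2c (chr4:109665373-109665622, minus strand) and Inpp5e (chr2:26409220-26409469, minus strand) partly lay under peaks with more signal at P28, which cover 30 and 168 of their bases, and neither stretch held a match. Wbp1l (chr19:46598856-46599105, plus strand) and an internal start of Pou5f1 (chr17:35508557-35508806, plus strand) lay under peaks with less signal at P28, which cover 250 and 99 of their bases. Wbp1l held 1 AP-1 core, and Pou5f1 held 1 Maf half-site and 1 CRX and OTX2 core on the opposite strand.
Cdkn2c: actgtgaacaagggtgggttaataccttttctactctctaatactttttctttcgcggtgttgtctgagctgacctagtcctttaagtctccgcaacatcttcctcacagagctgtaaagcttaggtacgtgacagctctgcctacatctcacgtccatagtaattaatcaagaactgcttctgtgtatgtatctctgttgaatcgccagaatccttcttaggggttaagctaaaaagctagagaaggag
Inpp5e: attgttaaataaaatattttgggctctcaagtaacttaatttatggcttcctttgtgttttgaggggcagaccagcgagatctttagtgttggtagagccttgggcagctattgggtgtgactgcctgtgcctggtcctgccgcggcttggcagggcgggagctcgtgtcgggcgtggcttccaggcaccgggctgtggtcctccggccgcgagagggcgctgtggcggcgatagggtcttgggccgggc
Wbp1l: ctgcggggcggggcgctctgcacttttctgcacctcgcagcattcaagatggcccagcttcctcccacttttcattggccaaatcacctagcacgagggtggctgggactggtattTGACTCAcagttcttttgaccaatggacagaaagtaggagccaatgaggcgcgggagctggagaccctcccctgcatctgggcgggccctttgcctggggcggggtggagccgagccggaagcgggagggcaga
Pou5f1: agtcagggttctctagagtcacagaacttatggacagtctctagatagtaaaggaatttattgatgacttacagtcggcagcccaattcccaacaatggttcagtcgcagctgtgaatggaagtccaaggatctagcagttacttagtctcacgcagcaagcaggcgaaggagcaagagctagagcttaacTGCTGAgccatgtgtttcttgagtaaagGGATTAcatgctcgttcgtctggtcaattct

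Matches were counted over 300-base windows that run from 250 bases before to 50 bases after a start. TGCTGA was in 7 of the 74 windows touched by peaks with more signal at P28 (9.46%) and in 7 of the 19 touched by peaks with less (36.8%), beside 13.5% of windows touched by any peak and 16.1% of all 32851 windows. TGANTCA was in 1.35% of the first group and 15.8% of the second, beside 3.5% of windows under any peak and 6.75% of all windows. TGACGTCA was in 4.05% of the windows higher at P28 and in 0 of the 19 windows lower at P28, beside 4.45% under any peak and 1.55% of all. TAATCC was in 5.41% of the windows higher at P28 and 10.5% of those lower, beside 5.97% under any peak and 6.25% of all. With 19 windows in the lower group these shares rest on few matches and were not tested.

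The first question was how many sites differed between the mature and the neonatal retina, and in which direction. On the deposited scale 855 of 8996 peaks (9.5%) differed at an adjusted p under 0.05 (limma on log2(RPKM + 1), Benjamini-Hochberg over all peaks). Signal was higher at P28 in 313 of them (3.48%) and lower at P28 in 542 (6.02%). Of the 313, 229 overlapped the authors' P28 peak list and not their P4 list, beside 1915 of all 8996 peaks. Of the 542, 390 overlapped the P4 list and not the P28 list, beside 1588 of all peaks. Peaks that may have entered the table through the age where they are high favour a difference. Their p-values are therefore not those of sites chosen blind to age. The median change of all peaks on this scale was 0.10 (log2). After each library was centred on its own median peak, 1058 peaks differed (11.8%), 276 higher at P28 (3.07%) and 782 lower (8.69%). The share of calls that were higher was thus 36.6% on the deposited scale and 26.1% after centring. On both scales and in the same direction 780 peaks were called, 246 higher and 534 lower, and 0 changed direction between the scales. With or without a call, both P28 libraries lay above both P4 libraries in 2505 peaks (27.8%) and below them in 1833 (20.4%). On the deposited scale, which direction held more calls depended on the P4 libraries. Without P4 replicate 4, the library with the most reads in peaks, 439 peaks were called, 291 higher and 148 lower, and without P4 replicate 3 there were 146 higher and 779 lower. After centring, lower calls were the more numerous in both cases, with 101 higher and 274 lower without P4 replicate 4 and 213 higher and 584 lower without P4 replicate 3. Without P28 replicate 3 the counts were 536 and 569 peaks, and without P28 replicate 4 they were 618 and 629. The median level over the 8 libraries was 3.65 RPKM for higher calls and 5.71 RPKM for lower calls, beside 4.05 RPKM for all peaks, and the plot of change against level shows each call. In a fit of the 4498 peaks at or above the median level alone, 121 were higher and 466 lower.

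**Figure D1:**
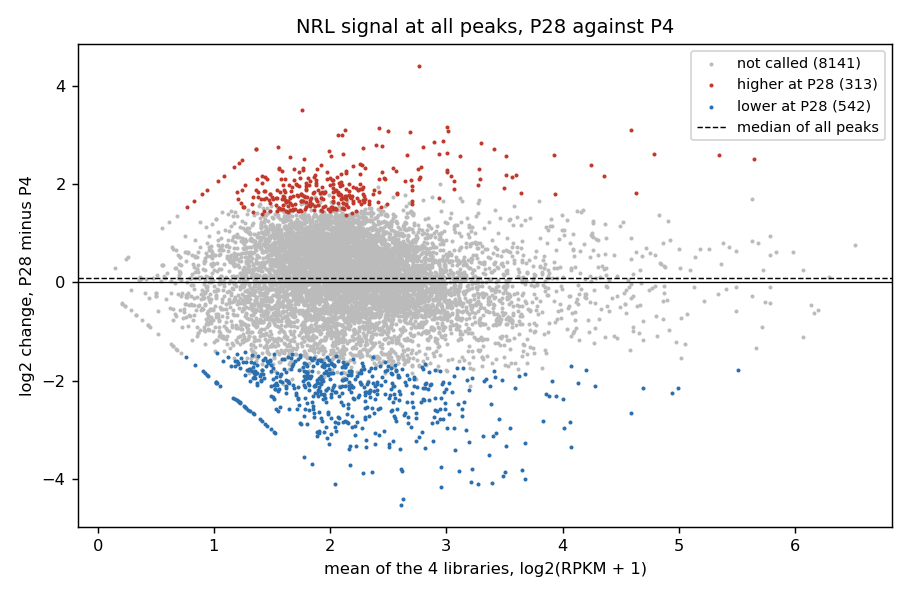
Change in NRL signal at each of the 8996 peaks (y axis, log2 of P28 minus P4, from log2(RPKM + 1)) against its mean level over the 2 P28 and 2 P4 libraries (x axis, log2). Red points are the 313 peaks called higher at P28, blue points the 542 called lower and grey points those not called; the dashed line, at 0.10, is the median of all peaks. The diagonal edges are peaks with few or 0 reads at one age.

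The peaks with the highest changes lay at rod genes and at genes with other roles. Among the 343 called peaks that were at or above the median level, near a protein-coding gene and without overlap between the ages, the 10 highest include those of Ccnl1, Stk35, Gnat1, Map2, Slc16a1, D130040H23Rik, Pde6a, Rabgef1 and Vipr2. Ccnl1, a cyclin of the splicing machinery, had an intergenic peak at chr3:65964850-65965040 with 9.73 and 11.1 RPKM at P28, against 0 reads in either P4 library. That is at least 9.87-fold higher, counting the P4 group at its floor of 3 reads, with a fitted log2 change of 3.51 ± 0.47 (SE) and an adjusted p of 9.8e-05. Stk35, which encodes a serine/threonine kinase, had 28.2 and 18.7 RPKM in its intron at P28, against 0.855 and 2.88 RPKM at P4 (log2 change 3.16 ± 0.56, adjusted p = 0.00095). As the rule requires, both P28 libraries lay above both P4 libraries at all 10 peaks. Rabgef1, an activator of the endosomal GTPase Rab5, had 18 and 19.9 RPKM in an intron at P28, against 1.34 and 2.27 RPKM at P4 (log2 change 2.85 ± 0.52, adjusted p = 0.0012). Map2, a microtubule protein of dendrites, was the least even of the 10, with 6.02 and 22.3 RPKM at P28 against 1.23 and 0 RPKM at P4, and its call was lost without P4 replicate 4 (adjusted p = 0.13).

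The peak with the highest change of all 8996 was outside that rule, since the nearest annotated start is that of a microRNA gene, Mir378b; it was chosen after its values were seen. It lies inside an intron of Msi2, the gene of an RNA-binding protein, at chr11:88404340-88404580. It had 23.8 and 38.0 RPKM at P28, against 0 and 1.19 RPKM at P4. The ratio of scaled reads was 55.1, with an exact 95% interval of 14.8 to 461 for counting error, and the log2 change was 4.40 (adjusted p = 6.5e-05). The other peak assigned to Mir378b had 3.07 and 1.95 RPKM at P28 against 4.03 and 5.67 RPKM at P4.

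Rod genes of light capture and recovery held 8 that rose at P28, among them transducin and phosphodiesterase genes. Of 40 genes on a list of rod phototransduction and outer segment genes, 35 had a peak within 50 kb, and at the strongest peak of each gene 8 rose, 1 fell and 26 did not pass the test. Over all 6482 genes with such a peak, 198 rose (3.05%) and 305 fell (4.71%), 7.76% in either direction and 9.78% after centring. The list's median log2 change was 0.82, beside 0.14 for all genes, and after centring it was 0.71 beside 0.03, with 7 genes higher (2.67% of all genes) and 1 lower (7.11%). In 20 of the 35 genes both P28 libraries lay above both P4 libraries, and in 3 they lay below, beside 29.2% and 17.9% of all genes. Counting every peak, 17 of the list's 72 peaks rose (23.6%, beside 3.42% of all peaks within 50 kb), and 11 genes had at least 1 peak that rose (4.09% of all genes did). The list was drawn up with earlier results of these libraries known. Without P4 replicate 4 the number of rod genes called higher at their strongest peak was 13, a pseudocount of 0.1 instead of 1 gave 3, and with the table's values as deposited the number was 4. Rgs9, Gucy2f, Drd4, Impg1 and Impg2 had no peak within 50 kb.

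Transducin and the phosphodiesterase it activates carry the light signal inside the rod. Gnat1, the alpha subunit of rod transducin, had 61.6 and 78.6 RPKM at its stronger promoter peak (chr9:107679577-107680076) at P28, against 4.32 and 11.7 RPKM at P4 (log2 change 3.10 ± 0.58, adjusted p = 0.0013). Its second promoter peak had 25.4 and 25.1 RPKM at P28, against 2.32 and 3.13 RPKM at P4 (log2 change 2.83 ± 0.53, adjusted p = 0.0013). Both Gnat1 peaks keep the ages apart by a wide margin. The beta subunit gene Gnb1 was uneven along its length: an intron peak rose, with 20.3 and 19.7 RPKM at P28 against 1.80 and 3.54 RPKM at P4 (log2 change 2.56 ± 0.55, adjusted p = 0.0041), while its strongest peak, at the promoter, had 71.5 and 79.0 RPKM at P28 against 23.9 and 62.0 RPKM at P4 and did not pass (adjusted p = 0.32). Pde6a, the alpha subunit of the phosphodiesterase, had 19.4 and 21.1 RPKM at -2734 bp at P28, against 1.37 and 2.56 RPKM at P4 (log2 change 2.87 ± 0.55, adjusted p = 0.0017). Of 7 peaks assigned to Pde6a at any distance, 2 were called higher and 0 lower. The most strongly bound of them, 50876 bp from the start, had 42 and 71.6 RPKM at P28 against 21.1 and 58.2 RPKM at P4. Its libraries overlapped and it did not pass (adjusted p = 0.56). Pde6b, the partner subunit of Pde6a, had 26.2 and 30.4 RPKM at its promoter at P28 and 7.87 and 16.9 RPKM at P4. The Pde6b libraries did not overlap, but the log2 change of 1.21 ± 0.54 did not pass (adjusted p = 0.17).

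Genes that control how long the light response lasts also had peaks that rose. Rcvrn, a calcium sensor of photoreceptors, had 16.7 and 19.3 RPKM at a peak 7893 bp from its start at P28, against 1.95 and 2.2 RPKM at P4 (log2 change 2.62 ± 0.52, adjusted p = 0.0023). Its promoter peak had 5.55 and 3.26 RPKM at P28 and 2.02 and 2.84 RPKM at P4, and did not pass (adjusted p = 0.46). Rgs9bp, which anchors the complex that speeds transducin's shut-off, had 7.42 and 5.88 RPKM at P28, against 0 and 0.285 RPKM at P4. The ratio of scaled reads at Rgs9bp was 49.7 (exact 95% interval 8.45 to 2011) and the adjusted p was 0.00087. Gnb5, the beta subunit of that same complex, had 8.74 and 8.21 RPKM in an intron at P28, against 1.19 and 0.895 RPKM at P4 (log2 change 2.22 ± 0.46, adjusted p = 0.0031). At Rgs9bp and Gnb5 every P28 value is several times every P4 value.

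Calls at Grk1, Guca1b, Rdh12 and Prph2 depended on single libraries. Grk1, a kinase of the phototransduction cascade, had 12.3 and 13.4 RPKM at a promoter peak at P28, against 2.87 and 3.63 RPKM at P4 (adjusted p = 0.032), and the call was lost without P28 replicate 3 (0.12), P28 replicate 4 (0.15), P10 replicate 1 (0.055) or P10 replicate 4 (0.058). Guca1b, a calcium sensor that drives guanylate cyclase, rose at its promoter, with 9.26 and 7.05 RPKM at P28 against 2.43 and 0.683 RPKM at P4 (adjusted p = 0.012), and at an upstream peak (adjusted p = 0.015). Without P4 replicate 4 those adjusted p-values were 0.086 and 0.074, and without P28 replicate 3 they were 0.064 and 0.15. Rdh12, a retinol dehydrogenase of photoreceptors, had 2.38 and 4.2 RPKM at its promoter at P28 and 0 reads in either P4 library, at least 3.16-fold higher (adjusted p = 0.0052, and 0.05002 without P4 replicate 4). Its stronger intron peak had 5.08 and 5.37 RPKM at P28 and 0 and 2.34 RPKM at P4 (adjusted p = 0.043, and 0.36 without P4 replicate 3, 0.05043 without P10 replicate 1 and 0.057 without P28 replicate 4). Prph2, a structural protein of disc rims, rose at -6284 bp (adjusted p = 0.011, and 0.12 without P4 replicate 3), with 5.66 and 4.49 RPKM at P28 against 0 and 1.30 RPKM at P4.

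Cdhr1, a cadherin at the base of the outer segment, was the 1 gene of the rod list that fell. Its intron peak had 0 reads in both P28 libraries, against 2.51 and 9.39 RPKM at P4, at least 3.66-fold lower (adjusted p = 0.0042, and 0.082 without P4 replicate 4). The promoter peak of the same gene had 8.45 and 4.47 RPKM at P28 and 4.04 and 5.19 RPKM at P4, and its libraries overlapped. Several strongly bound rod genes did not pass at their strongest peak. Sag, rod arrestin, had 45.4 and 46.2 RPKM at its promoter at P28, between the 24.9 and 49.8 RPKM of P4 (log2 change 0.37, adjusted p = 0.75). Rom1, a disc protein, had 54.2 and 59.5 RPKM at P28, between the 30.3 and 73.2 RPKM of P4 (adjusted p = 0.83).

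**Figure D2:**
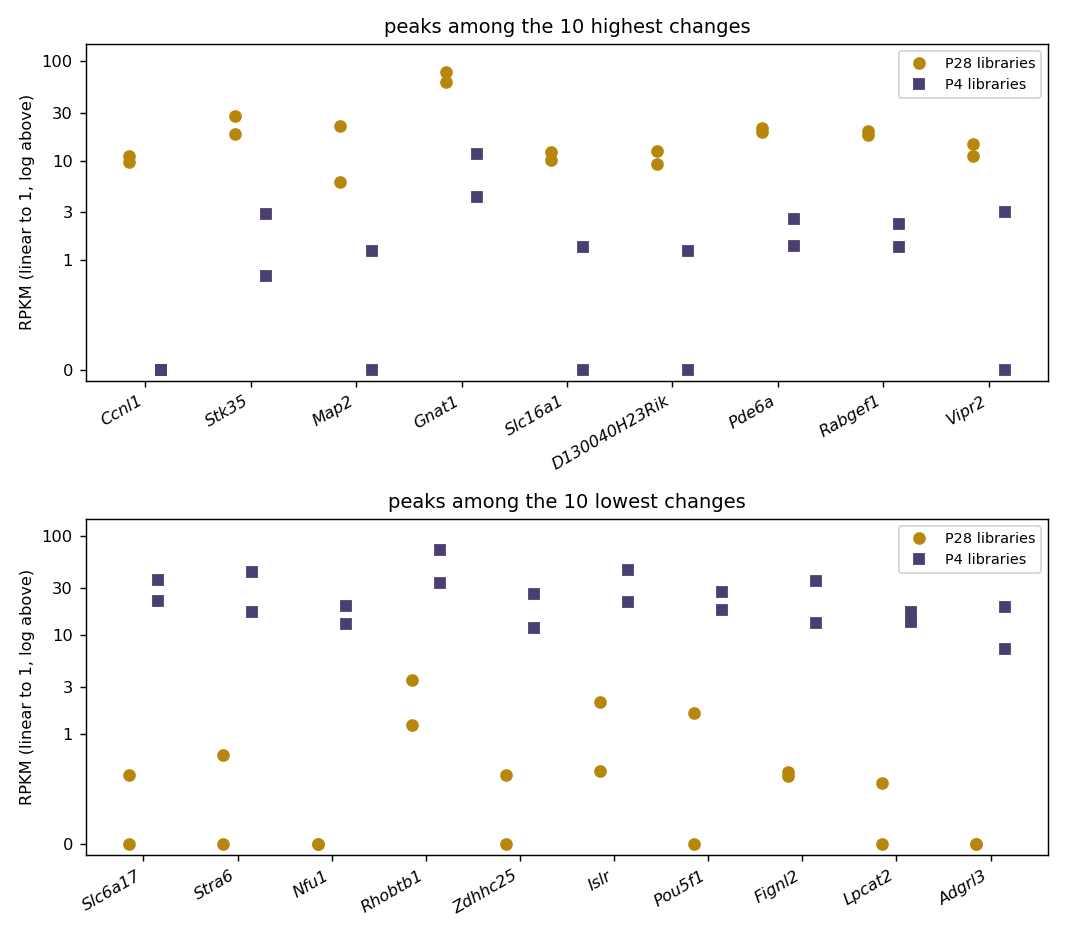
RPKM (y axis, linear to 1 and logarithmic above) in each P28 library (circles, left) and each P4 library (squares, right) at peaks among the 10 highest (top) and the 10 lowest (bottom) changes of the 343 peaks eligible for naming, labelled by nearest gene. The libraries of the 2 ages do not overlap at any of them, as the naming rule requires; Ccnl1 has 0 reads in both P4 libraries, and Nfu1 and Adgrl3 have 0 in both P28 libraries.

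Transcription factor genes of photoreceptors held 1 that rose and 1 that fell among 15 with a peak, beside 3.05% and 4.71% of all genes (median log2 change 0.05, and -0.06 after centring). Esrrb, an orphan nuclear receptor expressed in rods, had the strongest peak that rose of the list, in an intron at chr12:86507673-86508054. It had 105 and 133 RPKM at P28, against 12 and 32.9 RPKM at P4 (log2 change 2.51 ± 0.56, adjusted p = 0.0056, and 0.0546 without P28 replicate 4). Esrrb had 3 of its 6 peaks called higher, and Syne3, the gene of a nuclear envelope protein, also had 3 (each Syne3 call was lost without 1 library, at adjusted p = 0.13 without P4 replicate 4, 0.16 without P4 replicate 3 and 0.065 without P28 replicate 3). The other Esrrb calls were an intron peak with 8.01 and 6.70 RPKM at P28 against 0.821 and 1.54 RPKM at P4 (adjusted p = 0.011, and 0.064 without P4 replicate 3) and another with 8.49 and 5.23 RPKM at P28 against 0.58 and 1.96 RPKM at P4 (adjusted p = 0.022, and 0.16 without P4 replicate 3, 0.05002 without P4 replicate 4 and 0.12 without P28 replicate 3).

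Casz1, a zinc finger factor of retinal development, fell at 1 intron peak of 6. That peak (chr4:148940569-148940999) had 2.52 and 6.08 RPKM at P28, against 12.4 and 33.8 RPKM at P4 (log2 change -2.11 ± 0.58, adjusted p = 0.02), and the call was lost without P4 replicate 4 (0.085) or P28 replicate 3 (0.27). The homeobox gene Otx2, which acts upstream of Crx, fell at a pair of distal peaks that lie beyond the 50 kb limit of the list and were chosen after their values were seen. Its peak 52645 bp from the start (chr14:48608516-48609287) had 1.40 and 1.91 RPKM at P28, against 11.2 and 22 RPKM at P4 (log2 change -2.66 ± 0.54, adjusted p = 0.0027). The peak at 68207 bp had 1.09 and 1.92 RPKM at P28, against 5.37 and 15.1 RPKM at P4 (adjusted p = 0.015, and 0.11 without P4 replicate 4 and 0.13 without P28 replicate 3). At the Otx2 promoter P28 held 7.15 and 8.82 RPKM and P4 held 19.5 and 25.3 RPKM, without overlap, and the log2 change of -1.38 ± 0.62 did not pass (adjusted p = 0.17).

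The other regulators among the fixed loci were not called on either scale. Nrl itself had 4.78 and 7.21 RPKM at its strongest peak at P28 and 4.48 and 5.03 RPKM at P4 (log2 change 0.26 ± 0.83, adjusted p = 0.9). The P2 libraries held 16.1 and 0 RPKM there. At another Nrl promoter peak both P28 libraries lay above both P4 libraries, with 5.93 and 8.35 RPKM against 2.59 and 5.83 RPKM. Its log2 change of 0.70 ± 0.54 did not pass (adjusted p = 0.47), and at the Nrl peak at -1757 bp the libraries overlapped. Crx had 28.9 and 24.6 RPKM at P28, between 14.1 and 35 RPKM at P4 (log2 change 0.25 ± 0.56, adjusted p = 0.84). Nr2e3 had 5.23 and 9.96 RPKM at P28 and 8.58 and 20.3 RPKM at P4 (adjusted p = 0.43). Samd7, a rod protein linked to polycomb silencing, had 36.9 and 38.2 RPKM at P28, below the 43.2 and 116 RPKM of P4 (log2 change -0.90 ± 0.57, adjusted p = 0.37). Jun had 7.43 and 3.51 RPKM at P28 and 7.38 and 13.9 RPKM at P4 (adjusted p = 0.38). The strongest Fos peak, at -18301 bp, had 30.2 and 39.6 RPKM at P28, inside the range of 12.2 to 63.3 RPKM at P4 (adjusted p = 0.83). At the Fos promoter both P28 libraries lay above both P4 libraries, with 27.4 and 32.7 RPKM against 6.98 and 22.5 RPKM. That log2 change of 1.18 ± 0.57 did not pass (adjusted p = 0.22). The cone opsin gene Opn1sw and the cone arrestin gene Arr3 had no peak within 50 kb. A p that misses the threshold does not show that the ages were alike at these sites: the SE of most, near 0.56, leaves room for changes of more than 1 log2 unit.

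Genes of sugar breakdown and lactate transport held 3 that rose and none that fell among 17 with a peak, beside 3.05% and 4.71% of all genes, with a median log2 change of 0.55 (0.44 after centring, with 3 higher there too, beside 2.67% of all genes). Slc16a1, a transporter of lactate and pyruvate, had 10.1 and 12.2 RPKM at a promoter peak (chr3:104637871-104637977) at P28, against 0 and 1.33 RPKM at P4, a ratio of scaled reads of 17.8 with an exact 95% interval of 2.73 to 748 (adjusted p = 0.00045). Eno1, the glycolytic enzyme enolase, had 20.9 and 17.4 RPKM at an intergenic peak at -5503 bp at P28, against 1.20 and 3.71 RPKM at P4 (log2 change 2.64 ± 0.56, adjusted p = 0.0039). Pfkfb2, which sets the level of a regulator of phosphofructokinase, had 12.7 and 11.4 RPKM at P28, against 0.804 and 2.71 RPKM at P4 (adjusted p = 0.0086, and 0.063 without P4 replicate 3). At these peaks all 3 genes had P28 libraries far above the P4 libraries, whereas Hk1, Pgk1 and Tpi1 had log2 changes of 0.14, -0.03 and 0.06. The other peaks of the 3 genes were not called. Among them was the Eno1 promoter, with 3.91 and 3.45 RPKM at P28 against 3.21 and 4.21 RPKM at P4. Of the list's 30 peaks, 3 rose and 0 fell. Mitochondrial respiration and import had 0 called genes among 28 with limma, at a median of 0.58 (0.47 after centring). At an unadjusted p under 0.05 there were 7 higher and 0 lower, and limma with voom weights called 1 higher. In 14 of those 28 both P28 libraries lay above both P4 libraries and in 0 they lay below, beside 29.2% and 17.9% of all genes; the highest was Atp5a1, a subunit of ATP synthase, at a log2 change of 1.46 (adjusted p = 0.089).

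Among cilium genes, 1 of 21 rose and 1 fell (median 0.39, and 0.28 after centring), beside 3.05% and 4.71% of all genes (2.67% and 7.11% after centring). Inpp5e, a phosphoinositide phosphatase of the cilium, had 10.3 and 14.6 RPKM at the promoter whose sequence is given above at P28, against 2.82 and 1.59 RPKM at P4 (log2 change 2.08 ± 0.51, adjusted p = 0.01, and 0.068 without P4 replicate 4 and 0.059 without P28 replicate 4). Fbf1, a protein of the fibres that anchor the cilium, had 0 and 2.14 RPKM at P28, against 6.64 and 16.8 RPKM at P4 (adjusted p = 0.0045, and 0.072 without P4 replicate 4 and 0.14 without P28 replicate 3). Its promoter peak lay the other way, with 5.96 and 7.35 RPKM at P28 against 4.07 and 4.58 RPKM at P4, and did not pass (adjusted p = 0.63). After centring Arl3, a small GTPase of cilium transport, was called higher at its strongest peak as well, with 17.8 and 21.7 RPKM at P28 against 5.01 and 10.7 RPKM at P4 (adjusted p = 0.14 on the deposited scale and 0.039 centred). A weaker Arl3 intron peak was called higher on both scales, with 7.52 and 5.56 RPKM at P28 against 0 and 1.39 RPKM at P4. Its log2 change was 2.28 (adjusted p = 0.0045, and 0.0047 centred), and the call was lost without P4 replicate 3 (log2 change 1.65). Of 15 synapse genes 1 rose and 2 fell (median 0.22, and 0.11 after centring), beside 3.05% and 4.71% of all genes. Lrit3, a leucine-rich repeat protein of the rod synapse, had 5.34 and 10.2 RPKM at P28, against 2.63 and 0.985 RPKM at P4, and stood at the threshold (adjusted p = 0.04999, and 0.1 after centring). Its call was lost without P4 replicate 3 (0.067), P4 replicate 4 (0.27), P10 replicate 1 (0.0541), P10 replicate 4 (0.059) or P28 replicate 4 (0.24). Nrxn3, a presynaptic adhesion protein, fell at a log2 change of -2.38 (adjusted p = 0.04), and its call was lost without P4 replicate 4 (0.23), P28 replicate 3 (0.59) or P4 replicate 3 (0.056).

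The 10 lowest changes by the naming rule were at Slc6a17, Stra6, Nfu1, Rhobtb1, Zdhhc25, Islr, Pou5f1, Fignl2, Lpcat2 and Adgrl3, with fitted log2 changes of -4.52 to -3.68. Slc6a17, a transporter of amino acids into synaptic vesicles, had 0.627 and 0 RPKM in an intron (chr3:107496231-107496477) at P28, against 22.1 and 35.8 RPKM at P4. Scaled reads were 88.7-fold lower at P28, with an exact 95% interval of 15.6 to 3535 (adjusted p = 6.5e-05). Stra6, the cell-surface receptor for retinol binding protein, had 0.811 and 0 RPKM at P28, against 17.3 and 43.4 RPKM at P4, at a peak inside an intron of the neighbouring Ccdc33 (adjusted p = 9.8e-05). Signal at these sites was close to gone at P28. Nfu1, a protein of iron-sulfur cluster assembly, had 0 reads in both P28 libraries, against 12.9 and 19.8 RPKM at P4, at least 7.32-fold lower (adjusted p = 0.00011), and Adgrl3, an adhesion receptor of neurons, likewise had 0 reads at P28 against 7.2 and 19.1 RPKM at P4, at least 10.4-fold lower (adjusted p = 0.00021). Rhobtb1, an atypical small GTPase, kept the most signal at P28, with 3.55 and 1.25 RPKM against 33.9 and 73.0 RPKM at P4 (log2 change -3.99 ± 0.60, adjusted p = 0.00022).

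The Pou5f1 peak covers 99 bases of the stretch printed above, including its 2 motif matches, and Pou5f1 is the gene of a pluripotency factor. It had 0 and 1.65 RPKM at P28, against 18 and 27.4 RPKM at P4, with scaled reads 27.9-fold lower (exact 95% interval 4.67 to 1134, adjusted p = 0.00021). The peak at Wbp1l, printed for its AP-1 core, had 1.06 and 2.61 RPKM at P28, against 11.9 and 29.3 RPKM at P4 (log2 change -2.86 ± 0.57, adjusted p = 0.0024). At the other end, Cdkn2c, an inhibitor of cyclin-dependent kinases, had 8.53 and 4.51 RPKM at P28, against 0 and 1.31 RPKM at P4 (adjusted p = 0.0094, and 0.12 without P4 replicate 3). In the 4 printed promoters the libraries of the 2 ages do not overlap.

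Genes of progenitors and neurogenesis held 3 that fell and none that rose among 11 with a peak, beside 4.71% and 3.05% of all genes. The list's median log2 change was -0.55 beside 0.14 for all genes (-0.66 beside 0.03 after centring, with 4 lower, beside 7.11% of all genes). Notch1, the receptor that keeps progenitors undifferentiated, had 0.902 and 2.23 RPKM at P28, against 6.90 and 15 RPKM at P4 (log2 change -2.18 ± 0.54, adjusted p = 0.011, and 0.068 without P4 replicate 4 and 0.16 without P28 replicate 3). Jag1, a Notch ligand, had 0 reads in both P28 libraries, against 2.60 and 4.10 RPKM at P4, at least 3.38-fold lower (adjusted p = 0.0039, and 0.053 without P4 replicate 4). Id3, an inhibitor of differentiation, fell after centring (adjusted p = 0.012, and 0.085 on the deposited scale), with 5.13 and 4.52 RPKM at P28 against 9.12 and 27.6 RPKM at P4. The Notch1 and Jag1 calls on the deposited scale both failed without P4 replicate 4.

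Among genes of AP-1 and other bZIP factors, the family of NRL and c-Jun, 2 of 23 fell and 0 rose, beside 4.71% and 3.05% of all genes (limma). The median was -0.27, and -0.38 after centring, where 4 were lower, beside 7.11% of all genes. At an unadjusted p under 0.05 on the deposited scale 3 were higher and 4 lower, and voom weights called 1 higher and 1 lower. Cebpa, a bZIP factor of myeloid and fat cells, had 0 and 1.63 RPKM at P28, against 6.32 and 14.9 RPKM at P4 (adjusted p = 0.0037, and 0.082 without P4 replicate 4 and 0.065 without P28 replicate 3). Tef, a bZIP factor under the circadian clock, had 1.36 and 0 RPKM at P28, against 2.23 and 11.3 RPKM at P4 (adjusted p = 0.024, and 0.27 without P4 replicate 4 and 0.2 without P28 replicate 4). The AP-1 partner Jund, with 4.03 and 7.10 RPKM at P28 against 10.7 and 19.8 RPKM at P4, and the repressor Bach2, with 4.05 and 11 RPKM at P28 against 12.3 and 30.4 RPKM at P4, were called lower after centring alone (adjusted p = 0.043 and 0.0463).

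**Figure D3:**
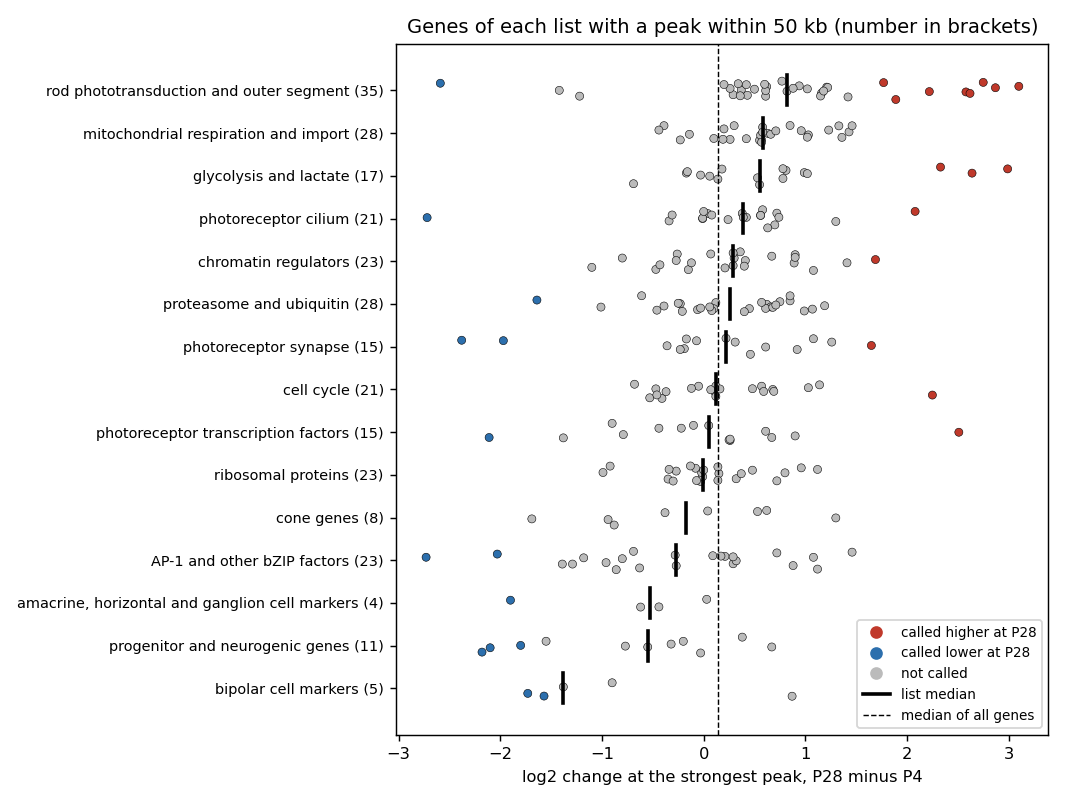
Log2 change in NRL signal (x axis, P28 minus P4, deposited scale) at the strongest peak within 50 kb of each gene (points), for the 15 lists with at least 3 such genes (rows, ordered by median). Black bars are list medians and the dashed line, at 0.14, is the median of all 6482 genes. Rod genes have the highest median, 0.82, with 8 genes called higher, and bipolar cell markers the lowest, -1.38, with 2 of 5 genes called lower. Over all genes 3.05% were called higher and 4.71% lower.

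Markers of other retinal cells had few peaks, so their counts rest on few genes. Over all genes 3.05% rose and 4.71% fell (2.67% and 7.11% after centring), at a median of 0.14 (0.03 after centring). Of 20 bipolar cell markers 5 had a peak and 2 of them fell, at a list median of -1.38 (-1.49 after centring). Nyx, a protein of the bipolar cell dendrite, had 1.25 and 2.64 RPKM at P28, against 5.12 and 13.8 RPKM at P4 (adjusted p = 0.045), and Irx6, a homeobox factor, had 1.09 and 1.54 RPKM at P28, against 5.07 and 6.70 RPKM at P4 (adjusted p = 0.031). Each call was lost without any 1 library of P28 or of P10 or without P4 replicate 4, with adjusted p-values of up to 0.34 for Nyx and 0.2 for Irx6. Among amacrine, horizontal and ganglion cell markers 1 of 4 fell (median -0.53): Th, the dopamine-synthesis enzyme of an amacrine cell class, had 7.74 and 3.64 RPKM at P28, against 14.8 and 34.9 RPKM at P4 (adjusted p = 0.032), and its call was lost without P4 replicate 4 (0.094), either P28 library (0.0539 and 0.33) or either P10 library (0.066 for each). Mitf, a pigment epithelium factor, fell at its strongest peak, in an intron, with 0 and 2.05 RPKM at P28 against 3.81 and 12.1 RPKM at P4 (adjusted p = 0.021, and 0.21 without P4 replicate 4 and 0.27 without P28 replicate 3). The promoter peak of Mitf lay the other way, with 5.43 and 4.51 RPKM at P28 against 0.955 and 2.86 RPKM at P4, without overlap, and did not pass (log2 change 1.12, adjusted p = 0.16). Of 13 Müller glia markers and 17 microglia and vessel markers, 0 had a peak. Of 8 cone genes with a peak 0 were called by limma on the deposited scale (median -0.17), with 1 higher and 1 lower at an unadjusted p under 0.05 and 0 with voom weights. After centring the cone transducin beta gene Gnb3 was lower, with 3.16 and 3.34 RPKM at P28 against 7.77 and 20.4 RPKM at P4 (adjusted p = 0.01, and 0.0533 on the deposited scale).

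Housekeeping lists showed few calls, which is also true of all genes, of which 3.05% rose and 4.71% fell. Ribosomal protein genes had 0 calls by limma among 23 with a median of -0.01 (2 higher at an unadjusted p under 0.05, and 0 calls with voom weights). Proteasome and ubiquitin genes had 1 among 28 with a median of 0.26. That call was Psmb7, a proteasome subunit, with 1.29 and 0.91 RPKM at P28 against 3.53 and 8.33 RPKM at P4 (adjusted p = 0.04), lost without P4 replicate 4 (0.22), P28 replicate 3 (0.092), P28 replicate 4 (0.18) or P10 replicate 4 (0.0549). Cell cycle genes had Cdkn2c as their 1 call among 21 (median 0.12). Among 23 chromatin regulators 1 rose (median 0.29): Kmt2a, a histone methyltransferase, had 4.84 and 12.4 RPKM at P28, against 1.32 and 2.23 RPKM at P4 (adjusted p = 0.035 and, after centring, 0.0535), and its call was lost without P4 replicate 3 (0.17), P4 replicate 4 (0.091) or P28 replicate 4 (0.32).

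Promoter peaks made up a smaller share of the called peaks than of all peaks. Within 1 kb of an annotated start were 34.2% of the peaks higher at P28 (Wilson 95% interval 29.2 to 39.6) and 8.86% of those lower at P28 (6.74 to 11.5), beside 56.8% of all peaks. Introns held 37.7% of the higher and 45.4% of the lower peaks, beside 22.8% of all, and intergenic or downstream sequence held 21.1% and 39.9%, beside 15.9%. More than 50 kb from a start were 10.2% of the higher and 30.8% of the lower peaks, beside 8.67% of all. Read the other way, 2.1% of promoter peaks were called higher and 0.94% lower, against 5.3% and 12.7% of peaks beyond 1 kb. After centring the order within promoters turned, with 1.7% of promoter peaks higher and 2.04% lower, against 4.86% and 17.4% of peaks beyond 1 kb, and promoters held 31.5% of the higher and 13.3% of the lower peaks. The gap between the directions was narrower without P4 replicate 3, at 27.4% of higher and 16.4% of lower peaks in promoters, and was 35.7% and 8.11% without P4 replicate 4, 25.1% and 8.59% without P28 replicate 3, and 33% and 9.03% without P28 replicate 4. Median peak widths were 232 bp for higher and 246 bp for lower peaks, beside 322 bp for all. Peaks are not replicates, so these shares are descriptions.

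**Figure D4:**
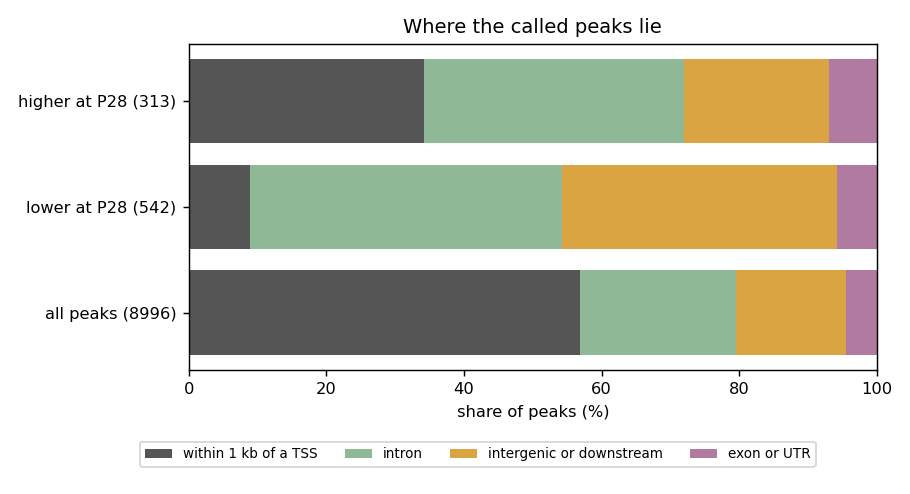
Share of peaks (x axis, percent) within 1 kb of an annotated start, in introns, in intergenic or downstream sequence and in exons or UTRs, for the 313 peaks called higher at P28 (top), the 542 called lower (middle) and all 8996 peaks (bottom). Promoters hold 34.2% of the higher and 8.86% of the lower peaks, beside 56.8% of all.

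The authors' own peak lists, 1 per age, were compared as well. Of the 3482 peaks listed at P28, 1560 overlapped a P4 peak by at least 1 bp (44.8%), and of the 3161 listed at P4, 1562 overlapped a P28 peak (49.4%). Promoters held 72% of the P28 peaks without a P4 partner (70 to 74), 47% of the P4 peaks without a P28 partner (44.6 to 49.5), and 77.4% of the peaks shared with the other age. Of the 313 peaks higher at P28, 76% overlapped the P28 list and 2.88% the P4 list, and of the 542 lower at P28, 3.14% overlapped the P28 list and 75.1% the P4 list, beside 38.6% and 35% of all 8996 peaks. The lists may rest on some of the same libraries as the table, so they are no independent check of the calls. Which replicates went into each list is not stated in those files.

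The other ages place these changes in time. At peaks higher at P28, the median RPKM was 1.22 and 1.31 in the P2 libraries, 0.87 and 1.33 in those of P4, 4.92 and 4.94 in those of P10, and 6.38 and 6.18 in those of P28. At peaks lower at P28, P2 had 4.42 and 5.29, P4 5.83 and 12.3, P10 6.72 and 6.35, and P28 0.953 and 1.11. Over all peaks P2 had 2.24 and 2.09, P4 2.52 and 4.48, P10 6.29 and 6.09, and P28 3.81 and 3.66. At P10 the higher peaks lay above their own P4 level and below the median of all peaks, and the lower peaks lay near the median of all peaks. Reads in peaks made up 3.08 and 2.84% of the library scale at P10, more than at P28 or P4, and the shares that follow are not centred. P10 was nearer to P28 than to P4 in 69% of the higher peaks and in 28% of the lower peaks, beside 50.4% of all peaks. P2 was nearer to P4 than to P28 in 93.6% of the higher and 68.6% of the lower peaks, beside 62.6% of all. The P4 and P28 values set the size and direction of these calls, and the spread within P2 and within P10 also entered the test. Only the P2 and P10 levels therefore add to the calls, and the median peak moved between ages as well. P10 over P2, which shares no library with P28 over P4, gave a median log2 change of 1.42 at the higher peaks and 0.45 at the lower peaks, beside 1.18 over all.

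**Figure D5:**
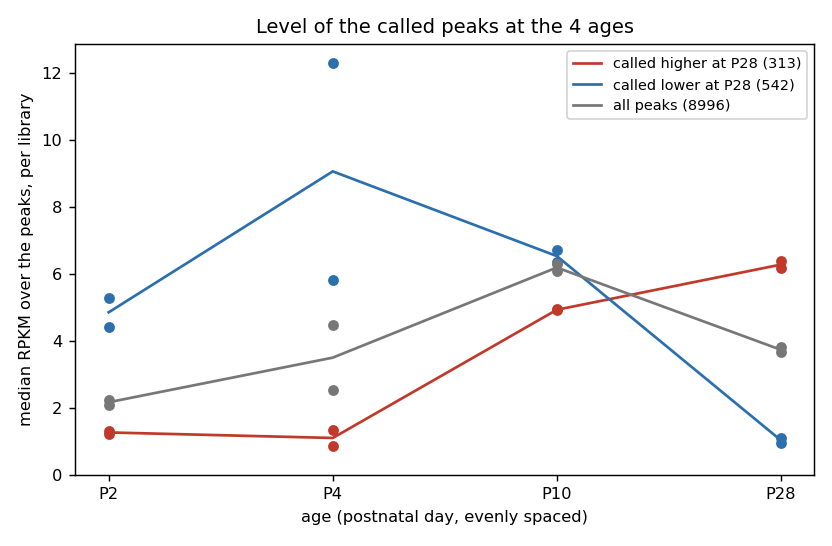
Median RPKM over the 313 peaks called higher at P28 (red), the 542 called lower at P28 (blue) and all 8996 peaks (grey), in each of the 2 libraries at P2, P4, P10 and P28 (points; lines join the means of 2 libraries; ages are evenly spaced). The red medians stand near 5 at P10 and above 6 at P28, the blue medians near 1 at P28 alone, and the 2 P4 libraries differ in the blue group, at 5.83 and 12.3.

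At a Gnat1 promoter peak and an Esrrb intron peak, signal at P10 was close to or above that at P28. Gnat1 averaged 1.77 RPKM at P2, 8.01 RPKM at P4, 60.5 RPKM at P10 and 70.1 RPKM at P28 at its stronger promoter peak (means of 2 libraries, with SDs of 1.42, 5.23, 17.4 and 12), and Esrrb averaged 6.45 RPKM at P2 and 137 RPKM at P10 at its strongest intron peak. The Casz1 intron peak averaged 57.9 RPKM and the Samd7 intron peak 190 RPKM at P10, above each of their P28 and P4 values. Slc6a17 averaged 14.0 RPKM at P2 and 1.9 RPKM at P10, and Adgrl3 8.81 and 1.46 RPKM, so signal at these sites was low by P10, whereas Nfu1 and Pou5f1 still averaged 12.9 and 17.3 RPKM at P10.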

How the data were processed

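CUT&RUN libraries were made with an anti-NRL antibody on 250000 retinal cells, with a 30 min cleavage and 10 pg of spike-in DNA, per the labels' protocols. Among the tools in the submitters' processing notes are MACS2 2.2.5, bedtools 2.29.0 and Bowtie2 2.3.5.1, listed without roles beside the mouse build GRCm38.p6; how the spike-in was used is not stated there. The deposited table holds values that behave as RPKM. For 100% of values they are whole reads (within 0.001) divided by a library scale and a width. The authors' width came from an earlier row, and the shift grew by 39 rows with each column after the first. Reads were recovered and RPKM rebuilt with each peak's own width; the 39 extra widths in that recycled vector were taken as the shortest that gave whole reads. The signal and score in the deposited peak lists are the authors' own and only ranked peaks within a list; position and nearest gene are the authors' annotation, matched to RefSeq for 8995 peaks.

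Of the 15 labelled libraries 7 have no column and were not analysed here. Log2(RPKM + 1) was fitted with limma 3.58.1 (R 4.3.3), trended and robust, with a mean for each age over all 8 libraries, which leaves 4 residual degrees of freedom, and without a filter on low values. P-values were adjusted by Benjamini-Hochberg over the 8996 peaks, and a call is an adjusted p under 0.05. The centred scale subtracts each library's median. As an alternative, limma with voom weights was fitted to the recovered reads. The fit was tested on simulated data. Intervals and the 3-read floor cover counting error only, and reads without molecular identifiers are not independent molecules. Fold changes of weak peaks are understated by the pseudocount of 1.

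Named peaks were the 10 highest and 10 lowest changes among called peaks at or above the median level (4.05 RPKM), without overlap, within 50 kb of a protein-coding start, 1 per gene; the next 5 in each direction after centring; up to 4 called members of each gene list; and fixed loci. Results for a few genes are not reported here. The members and lists were chosen with earlier results of these data known. Tables were handled in Python 3.11.15 with pandas 2.3.3, and intervals came from SciPy 1.17.1.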

Additional observations from a re-analysis of the deposited data

How the results depend on the processing

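The number of calls depended on the pseudocount, the width and P4 replicate 4. On the deposited scale 855 peaks (313 higher, 542 lower) became 193 with a pseudocount of 0.1 (29 higher, 164 lower), 1324 with 5 (587 higher, 737 lower), and 266 with the widths the table used (70 higher, 196 lower). After centring, 1058 became 514 with 0.1 and 401 with the table's widths. Leaving out 1 library in turn gave 439 to 1115 calls on the deposited scale and 375 to 1292 after centring. Voom weights gave 785 and 1317, the P28 and P4 libraries alone 805 and 982, and upper quartile scaling 1010. Within 3 kb of a start lay 45.4% of higher and 17.7% of lower peaks; leaving out 1 library of P28 or P4, an alternative chosen after seeing the data, gave 25.1 to 35.7% and 8.11 to 16.4% within 1 kb. At equal list lengths 47.6% of P28 peaks overlapped P4. The cause of these shifts was not tested.

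Of 52 named peaks that were called, 30 stayed called in each fit without 1 library and 0 reversed under any setting tried; 30 of the 52 lost their call with a pseudocount of 0.1 and 26 with the table's widths. Of 13 named peaks that were not called, the strongest Crx peak turned to -0.22 with the table's widths and ran from -0.38 (without P4 replicate 3) to 0.87 (without P4 replicate 4) when 1 library was left out, and Fos ran from -0.85 to 1.43 under the same omissions. The replicate numbers are shared between ages, but the labels do not say that they mark a shared batch, and deviations of the same number correlated at 0.029 between P28 and P4. With the number as a block, 897 and 876 peaks were called. At a median of 4 to 15 reads per peak in a library, small changes at weak peaks were not detectable.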

Other observations

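Further peaks, chosen after their values were seen, lay nearest to microRNA genes. Of 123 peaks nearest a microRNA gene, 2 were higher and 11 lower at P28, beside 3.48% and 6.02% of all peaks; after centring 15 were lower, beside 8.69% of all peaks. Mir138-1 had 1.10 and 0.583 RPKM at P28, against 11.3 and 24.4 RPKM at P4 (log2 change -3.28, limma adjusted p = 0.00074). Mir144, part of a cluster known from red blood cells, had 1.02 and 0 RPKM at P28, against 7.49 and 22.9 RPKM at P4 (log2 change -3.33, adjusted p = 0.00065). Mir205 had 1.43 and 1.51 RPKM at P28, against 10.5 and 22.4 RPKM at P4 (log2 change -2.73, adjusted p = 0.0015). At Mir138-1, Mir144 and Mir205 both P28 libraries lay below both P4 libraries, and each call held without any 1 library.

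Genes with 2 or more called peaks in 1 direction numbered 13 for higher and 18 for lower, among 1277 genes with 2 or more peaks. The higher set holds the rod genes Gnat1, Pde6a, Guca1b and Rdh12, together with Esrrb, Syne3, Me1, the gene of malic enzyme, and Oxr1, which protects against oxidative stress. Both Gnat1 calls held without any 1 library. Pde6a, Guca1b, Rdh12, Esrrb and Syne3 each had at least 1 call that was lost in some fit without 1 library. In 2 genes, Gabrr3 and Zfp365, a peak rose and another fell. Gabrr3, a GABA receptor subunit, had 18.1 and 34.1 RPKM in an intron at P28, against 2.58 and 7.97 RPKM at P4 (adjusted p = 0.02, and 0.11 without P4 replicate 3 and 0.16 without P28 replicate 4). Its peak upstream of the start had 0 and 1.14 RPKM at P28, against 2.66 and 14.0 RPKM at P4 (adjusted p = 0.035, and 0.32 without P4 replicate 4 and 0.083 without P28 replicate 3).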
